A study of Mus musculus with 10 samples.

Results

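Described here are 31 genes of lipid synthesis in regulatory T cells (Tregs): 17 enzymes of the sterol pathway, 8 enzymes that make or desaturate fatty acids, and 6 genes that regulate the sterol pathway or carry its product. They were taken from the 21556 gene rows of a count table by matching their Ensembl identifiers to gene symbols. All 31 had a row, all 31 passed the filter on low counts, and 30 of them had at least 10 counts in every library. The exception was Scd1, with 9 counts in all LN libraries of control mice together.

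The RNA came from Tregs sorted by RFP fluorescence out of a tumor, grown from an injected lymphangiogenic melanoma line, or out of a lymph node (LN) of mice aged 10 weeks. MHCII-deleted mice (MHCIIdeltaProx-1, Prox1 Cre positive) lose MHC class II where the Prox1 promoter, which is active in lymphatic endothelial cells, drives the Cre recombinase. Control mice (MHCIIfl/fl) carry the floxed allele without Cre. The labels do not say which gene drives RFP, and their sorting protocol names tumors only. The 4 groups are called MHCII-deleted tumors (2 libraries), control tumors (3), MHCII-deleted LN (2) and control LN (3) hereafter. The sources used here do not say whether each library is 1 mouse or a pool, so p-values measure only the spread between these libraries, which may be technical. The question was whether Tregs differ between tumor and LN and with the loss of lymphatic MHC class II.

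Cholesterol is built from acetyl-CoA through mevalonate, farnesyl diphosphate, squalene and lanosterol, and fatty acids are built from the same acetyl-CoA through malonyl-CoA and palmitate. Both branches are switched on by the SREBP transcription factors, which Scap carries out of the endoplasmic reticulum when sterols are scarce and which the Insig proteins hold back when sterols are plentiful. Activated T cells need both branches to build membranes, and in Tregs the mevalonate branch is known to bear on proliferation and suppressive function. Melanoma cells run the same enzymes, so the genes do not mark a cell type.

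SREBPs bind sterol response elements near the start of their target genes, usually beside sites for NF-Y (a CCAAT box) and Sp1 (a GC box). Promoter windows from RefSeq (GRCm38.p6, 250 bases before to 50 after a start) were at hand for 24 of the 31 genes, in 32 windows. The sequences below are the 150 bases before the RefSeq start of an early and a later sterol enzyme, the feedback regulator Insig1 and the fatty acid synthase. They are examples taken from the genes that had a window. Fads1, Fdft1, Fdps, Scd1, Scd2, Sqle and Stard4 had no window, so their promoters were not searched. By the gene positions given further on, which come from another annotation, the Cyp51 and Insig1 stretches reach into the gene. Each runs 5′ to 3′ on the strand of its gene, and capitals mark a motif. The motifs searched on both strands were TCACNCCAC (a sterol response element), CACGTG (an E-box), CCAAT and GGGCGG, and in the Fasn stretch a pair of CCAAT matches on opposite strands overlap.
Hmgcs1, chr13:119690201-119690350, plus strand: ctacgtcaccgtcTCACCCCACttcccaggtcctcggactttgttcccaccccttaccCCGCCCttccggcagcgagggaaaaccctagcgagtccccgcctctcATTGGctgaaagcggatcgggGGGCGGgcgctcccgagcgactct
Cyp51, chr5:4104698-4104847, minus strand: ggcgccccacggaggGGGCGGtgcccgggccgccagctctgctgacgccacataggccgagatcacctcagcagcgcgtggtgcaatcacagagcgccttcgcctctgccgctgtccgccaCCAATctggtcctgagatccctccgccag
Insig1, chr5:28071262-28071411, plus strand: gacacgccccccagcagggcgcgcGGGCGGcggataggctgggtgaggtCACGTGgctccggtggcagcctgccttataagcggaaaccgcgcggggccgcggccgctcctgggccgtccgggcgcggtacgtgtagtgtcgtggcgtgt
Fasn, chr11:120824548-120824697, minus strand: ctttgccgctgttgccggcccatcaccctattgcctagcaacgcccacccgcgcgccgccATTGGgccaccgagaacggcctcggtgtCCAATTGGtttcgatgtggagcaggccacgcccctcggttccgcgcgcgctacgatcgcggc

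The Hmgcs1 stretch holds the only sterol response element letters among the member windows, 137 bases before the start, with a CCAAT box at 45 and GC boxes at 92 and 24 bases before it. That motif was in 1 of 32 member windows (3.12%) and in 1.242% of all 32851 windows. A CCAAT box was in 62.5% of member windows against 37.408% of all windows. A GC box was in 75.0% against 35.658%, and an E-box in 18.8% against 7.15%. These are matches of letters only, several windows belong to 1 gene, and many SREBP sites differ from the letters searched.

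The libraries held 28539329 to 35736175 counts, with 12825 to 14703 genes detected in each, and a gene with 0 counts could lie as high as 0.0809 to 0.107 CPM (the value of 3 counts). CPM is the count scaled to the library's TMM-adjusted total, and limits of this kind cover counting error only. The 7 Treg markers, Foxp3 among them, were above 0 in every library and summed to 3881 and 4309 CPM in MHCII-deleted tumors, 9107 to 9565 in control tumors, 4758 and 4977 in MHCII-deleted LN and 5204 to 5586 in control LN. The 10 melanoma markers summed to 14590 and 18160 CPM in MHCII-deleted tumors and 3653 to 7199 in control tumors, and to 19.0 and 27.1 in MHCII-deleted LN and 9.11 to 18.7 in control LN. The 22 pan-T cell genes summed to 7966 and 9026 CPM in MHCII-deleted tumors and to 17270 to 20120 in every other library. The 7 stromal markers summed to 275.3 and 666.9 CPM in MHCII-deleted tumors and 444.4, 4179 and 2545 in control tumors, and to at most 4.91 in LN. The endothelial markers summed to 83.2 and 247 CPM in MHCII-deleted tumors and 89.1 to 114.6 in control tumors. In LN they summed to 194.5 and 216 CPM in MHCII-deleted and 180.3 to 215.8 in control mice. Nearly all of these LN sums was Pecam1, with means of 204.2 and 201.6 CPM, while Cdh5, Kdr, Lyve1 and Flt4 averaged at most 0.1. Of the 6 tested, Pecam1 was called lower in MHCII-deleted than in control tumors. Flt4 and Lyve1, markers of lymphatic endothelium, were called higher there (log2 3.79 ± 0.96 and 3.92 ± 1.16; edgeR, adjusted p = 0.0171 and 0.0359). Both were mostly in library 2 of the MHCII-deleted tumors, with Flt4 at 10.6 and 60.8 CPM and Lyve1 at 2.72 and 83.3. The Lyve1 groups overlapped, and Prox1 was not called (0.09). Adipocyte markers reached at most 1.90 CPM in sum, with Lep at 0 in every library. Melanoma markers were thus highest in the MHCII-deleted tumors, and stromal markers varied widely among the control tumors. In such samples fewer cells of a type and less RNA per cell cannot be told apart.

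Levels of the members spanned a wide range. Per kilobase of exon, the most abundant in control tumors were Scd2 at 151.4 CPM per kilobase, Acly at 107.7, Srebf2 at 69.8, Ebp at 68.2 and Cyp51 at 62.2, and Acaca was least abundant at 0.324. In control LN Acly led with 99.4 CPM per kilobase, before Ebp with 57.4, Scd2 with 48.8 and Srebf2 with 48.1, and the least abundant were Scd1 at 0.0192, Acaca at 0.381, Idi1 at 0.597 and Fads2 at 0.607. Within the sterol branch Idi1, at 1.27 CPM per kilobase in control tumors and 0.597 in control LN, was the lowest enzyme in both tissues.

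**Figure D1:**
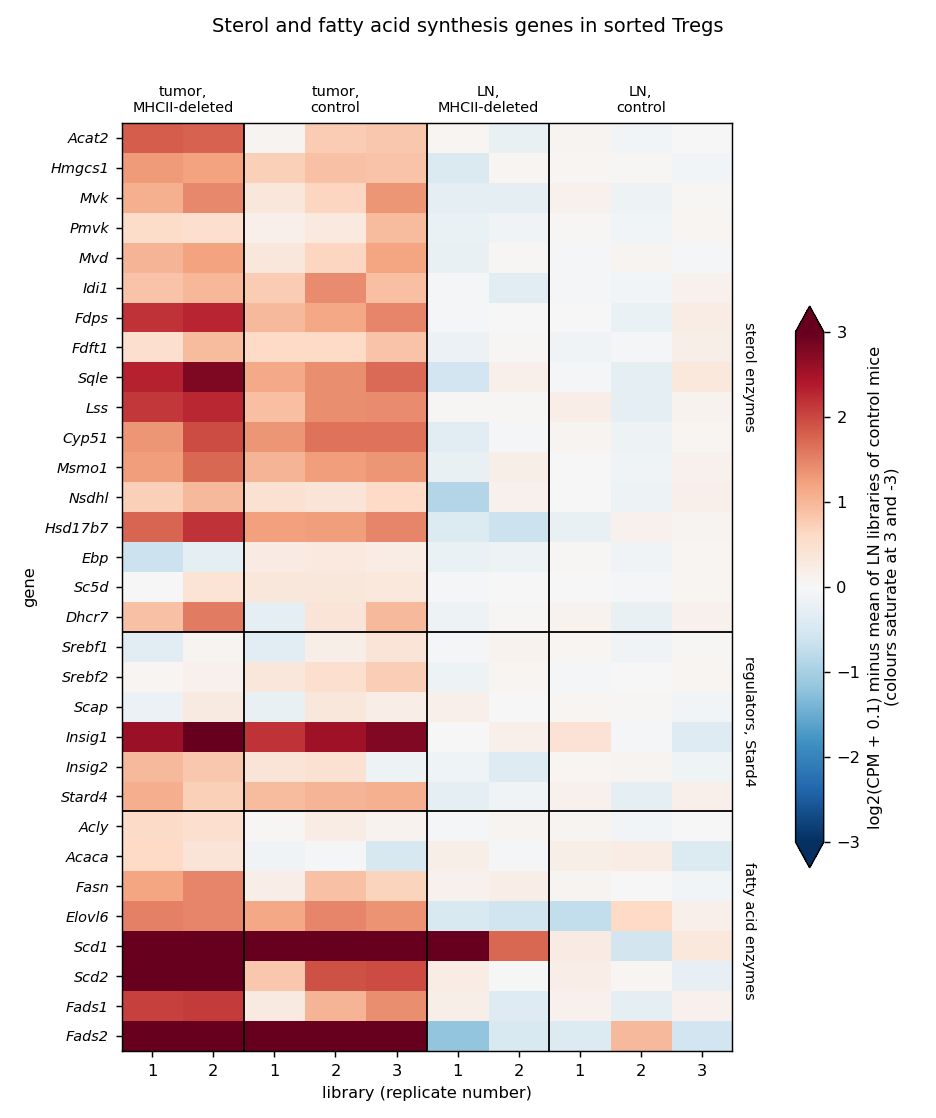
Colour gives the log2(CPM + 0.1) of each member in each of the 10 libraries minus its mean in the 3 control LN libraries, with libraries as columns and genes as rows in pathway order. The tumor columns are red for most sterol and fatty acid enzymes, while Srebf1, Scap and Sc5d stay near white. Ebp is at most faintly blue in the MHCII-deleted tumors, a direction that turns with scaling to pan-T cell genes.

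In MHCII-deleted mice, most enzymes of both branches were higher in tumor than in LN Tregs. Of the 17 sterol enzymes 14 rose and 0 fell, where 24.3% of all 13920 genes tested rose and 20.1% fell (edgeR quasi-likelihood test, Benjamini-Hochberg adjusted p under 0.05), with a median of 1.404 against 0.07 for all genes. Of the 8 fatty acid enzymes 7 rose and 0 fell, with a median of 2.09. At an unadjusted p under 0.05, or by DESeq2, 0 enzymes of either branch fell as well. All members together had 24 calls, where 44.4% of all genes had one. Every MHCII-deleted tumor lay above every MHCII-deleted LN library in 16 sterol and all 8 fatty acid enzymes, as in 39.2% of all genes, and below in 1, Ebp, as in 36.4%. By the test 19 members rose in both genotypes, Pmvk, Nsdhl, Dhcr7, Acly and Insig2 passed in MHCII-deleted mice alone, Idi1, Sc5d and Srebf2 passed in control mice alone, and Ebp, Acaca, Srebf1 and Scap passed in neither. Whether an effect differs between genotypes is tested further on. The largest sterol values were those of Sqle (2.75 ± 0.31; 6.71-fold), Hsd17b7 (2.50 ± 0.22), Fdps (2.24 ± 0.20) and Lss (2.17 ± 0.22), while Cyp51 had 1.84 ± 0.21. Insig1 had 2.80 ± 0.30, Insig2 1.13 ± 0.21 and Stard4 1.12 ± 0.20. Scd1, Fads2 and Scd2 had 6.91 ± 0.74, 7.72 ± 0.73 and 3.16 ± 0.34, each with an edgeR adjusted p under 0.05. With pan-T scaling the all-gene median went from 0.07 to 1.22, the sterol median to 2.56 and the share of calls that were higher from 54.8% to 96.1%. Of these 24 calls, 20 were made under each of 15 alternatives that keep the scaling to all counts, and those of Dhcr7, Fdft1, Nsdhl and Pmvk were not. In the same comparison all 10 melanoma markers and 6 of 7 stromal markers rose and all 21 pan-T cell genes tested fell, and their part in the result was not tested.

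In control mice, too, tumor Tregs had higher levels of most of the sterol pathway than LN Tregs. Of the 17 sterol enzymes, 13 rose and 0 fell, where 22.8% of all genes rose and 16.1% fell (edgeR, adjusted p under 0.05). Over all 31 members 22 were called, where 38.9% of all genes were called in either direction. In 15 sterol enzymes every control tumor lay above every control LN library, as in 29% of all genes, and in 0 every one lay below, as in 24%. By DESeq2 and at an unadjusted p under 0.05 again 0 fell. All 17 had a positive log2 fold change, with a median of 0.82 against 0.08 for all genes. Scaling by pan-T cell genes instead of all counts changed the share of calls that were higher from 58.6% to 71.8% and left every direction of the sterol enzymes. Pmvk, Nsdhl, Ebp and Dhcr7 did not pass, at 0.51, 0.48, 0.25 and 0.44. In the same comparison all 10 melanoma markers and all 7 stromal markers rose, and their part in the result was not tested.

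**Figure D2:**
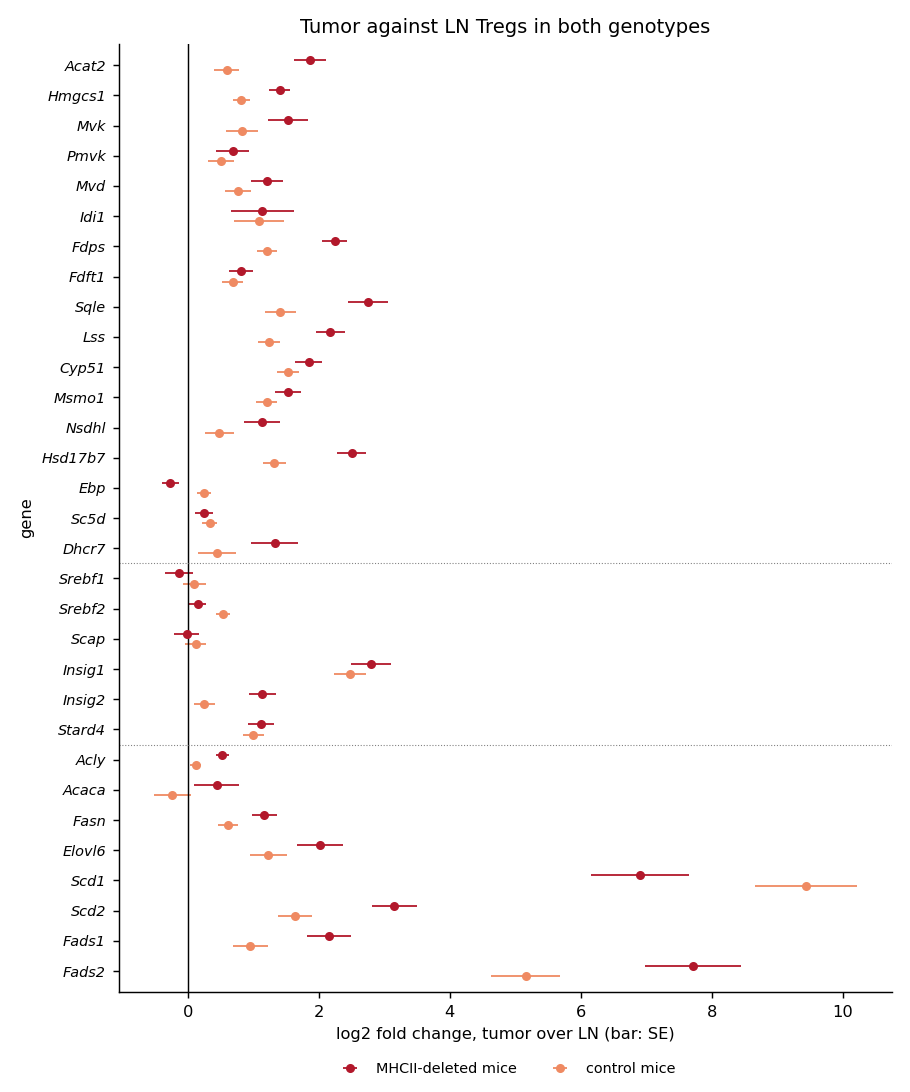
The horizontal axis gives the log2 fold change of tumor over LN with its SE for each member, in MHCII-deleted mice (dark red) and control mice (orange). Most members lie right of 0 in both, and Ebp, Srebf1, Scap and Acaca change sign between the genotypes without passing the test. The values of MHCII-deleted mice lie further right for 25 of 31 members, and for 6888 of all 13920 genes. Of the members 4 passed the test of that difference, and 0 of these did so under every alternative. Scaled to pan-T cell genes, Ebp, Srebf1 and Scap lie right of 0 in MHCII-deleted mice.

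At the entry of the pathway, Acat2, the cytosolic thiolase that joins a pair of acetyl-CoA molecules, had a log2 fold change of tumor over LN of 0.59 ± 0.19 in control mice (SE; edgeR, adjusted p = 0.0339). Its call was lost under 7 of 15 alternatives, with values of 0.46 to 0.79 over all 15, and 39.1% of its 50-base transcript windows also occur in another gene, mostly Acat3. Hmgcs1, which makes HMG-CoA, had 158.3 and 152.6 CPM in MHCII-deleted tumors, 108, 121.5 and 118.3 in control tumors, 48.9 and 68.6 in MHCII-deleted LN, and 68.5, 67 and 61.7 in control LN. Every tumor library lay above every LN library. Its log2 fold change in control mice was 0.82 ± 0.13 (edgeR, adjusted p = 0.000803). The kinase Mvk rose with 0.83 ± 0.25 and the decarboxylase Mvd with 0.76 ± 0.20, while the other kinase, Pmvk, missed the threshold (0.51 ± 0.20; edgeR, adjusted p = 0.0749). Mvk lost its call without library 3 of the control tumors (0.50) and without any 1 control LN library (0.75 to 0.89). Idi1, the isomerase of the isoprene unit, rose with 1.09 ± 0.39 but kept its call in 2 of 15 alternatives, and 25.3% of its windows occur in another gene.

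Fdps, which condenses isoprene units to farnesyl diphosphate, had 124.5 and 133.7 CPM in MHCII-deleted tumors, 54.1, 61.5 and 76.4 in control tumors, 26.8 and 27.9 in MHCII-deleted LN, and 27.3, 23.8 and 32.1 in control LN. The 4 groups stood in 3 steps, with both LN groups overlapping at the lowest one. In control mice the tumor level was 2.31 times the LN level (log2 1.21 ± 0.16; edgeR, adjusted p = 0.000249). Fdft1, the squalene synthase at the branch toward sterols, rose with 0.68 ± 0.15, and 26.5% of its transcript windows occur in another gene, mostly Ctsb. Of the Fdps windows 26.2% are likewise shared, so reads of both genes may be split or lost.

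Sqle, the squalene epoxidase and a known control point of the pathway, lies on chromosome 15 (59315077 to 59331192, plus strand, GRCm38; ENSMUSG00000022351). It had 224.9 and 317.7 CPM in MHCII-deleted tumors, 99.98, 120 and 147.5 in control tumors, 30.4 and 50.4 in MHCII-deleted LN, and 44.4, 36.9 and 56.7 in control LN. No tumor library overlapped with an LN library, and the MHCII-deleted tumors lay above those of control mice. The log2 fold change of tumor over LN in control mice was 1.41 ± 0.24 (edgeR, adjusted p = 0.00142). Lss, which closes squalene epoxide to lanosterol, had 103.6 and 115.4 CPM in MHCII-deleted tumors, 44.6, 62.3 and 63.6 in control tumors, 24.2 and 24.4 in MHCII-deleted LN, and 27.3, 19.3 and 25.7 in control LN. Its steps were those of Sqle, with 1.24 ± 0.18 between tumor and LN in control mice (edgeR, adjusted p = 0.000434).

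Cyp51, the lanosterol demethylase (ENSMUSG00000001467, chromosome 5, 4081145 to 4104746, minus strand), had 236.7 and 366.1 CPM in MHCII-deleted tumors, 238.8, 292.6 and 292.3 in control tumors, 75.8 and 92.1 in MHCII-deleted LN, and 100.1, 85.6 and 99.2 in control LN. The genotypes overlapped in tumor, and every tumor library lay far above every LN library. With 1.53 ± 0.17 it had the largest fold change of the 17 sterol enzymes in control mice (edgeR, adjusted p = 8.78e-05). Msmo1, a methylsterol oxidase, had 153.9 and 213.7 CPM in MHCII-deleted tumors, 129.9, 152.9 and 162 in control tumors, 54.9 and 72.7 in MHCII-deleted LN, and 63.7, 59.8 and 69.7 in control LN. It followed the pattern of Cyp51, with 1.20 ± 0.16 in control mice (edgeR, adjusted p = 0.000273). Hsd17b7, a sterol ketoreductase, had 46.4 and 61.4 CPM in MHCII-deleted tumors, 32.3, 32.7 and 37.9 in control tumors, 10.3 and 8.69 in MHCII-deleted LN, and 11.8, 15.0 and 14.4 in control LN. Here the genotypes were apart in both tissues, in opposite directions, and the fold change of tumor over LN in control mice was 1.32 ± 0.17 (edgeR, adjusted p = 0.000276).

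In control mice, Nsdhl, Ebp, Sc5d and Dhcr7 had the lowest values of the 17 sterol enzymes. Sc5d, the sterol desaturase, rose by a log2 fold change of 0.33 ± 0.11 and lost its call in 10 of 15 alternatives. Nsdhl, which works with Msmo1 and Hsd17b7 to remove methyl groups, Ebp, the sterol isomerase, and Dhcr7, the reductase that yields cholesterol, gave edgeR adjusted p values of 0.116, 0.0928 and 0.254. Dhcr7 differed most among the control tumors, with 28.3, 45.8 and 68.9 CPM, against 37.3, 29.9 and 37.9 in control LN.

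**Figure D3:**
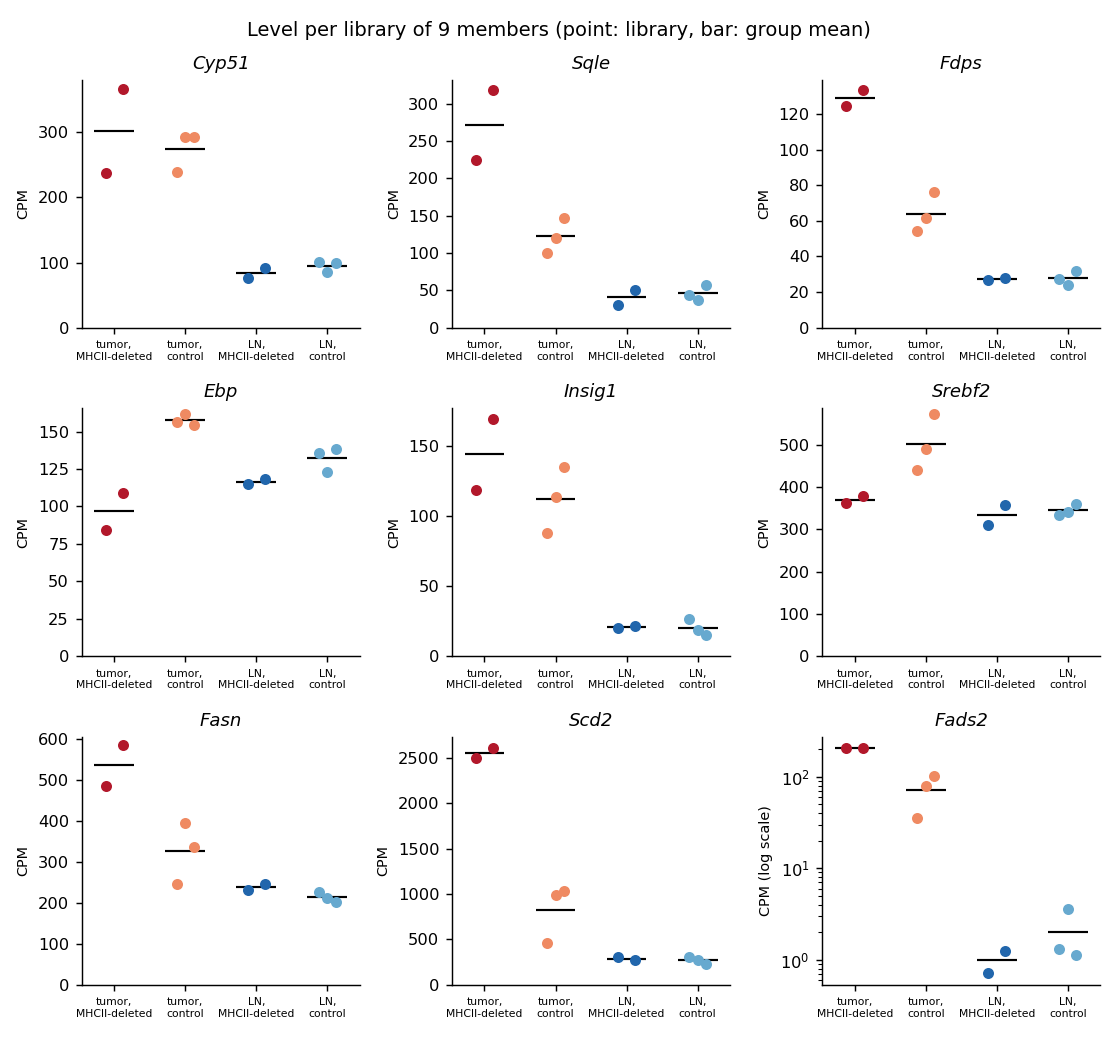
CPM on the vertical axis (log scale for Fads2 only) in each library (points) with the group mean (bars) for 9 members. Cyp51 and Insig1 separate tumor from LN, Sqle, Fdps, Fasn and Scd2 also separate MHCII-deleted from control tumors, and Ebp and Srebf2 are lower in MHCII-deleted than in control tumors relative to all counts, a direction that turns with scaling to pan-T cell genes.

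Among the regulators, the retention factor Insig1 moved far more than the transcription factors. Insig1 (ENSMUSG00000045294, chromosome 5, 28071363 to 28078662, plus strand), itself a target of SREBP2 and part of its negative feedback, had 118.6 and 169.2 CPM in MHCII-deleted tumors, 88.1, 113.5 and 135.3 in control tumors, 19.8 and 21.7 in MHCII-deleted LN, and 26.5, 18.9 and 14.8 in control LN. Tumor and LN were far apart and the genotypes overlapped within each tissue except for the higher of the MHCII-deleted tumors. Its level in tumor was 5.59 times that in LN in control mice (log2 2.48 ± 0.24; edgeR, adjusted p = 4.29e-05). The other retention factor, Insig2, had 95.97 and 85.9 CPM in MHCII-deleted tumors, 64.6, 67.3 and 44.1 in control tumors, 45.3 and 37.5 in MHCII-deleted LN, and 50.9, 51.9 and 44.95 in control LN. In control mice its tumor libraries overlapped with LN (0.25 ± 0.17; edgeR, adjusted p = 0.254).

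Srebf2, which encodes the SREBP that drives sterol genes, had 361.4 and 378.6 CPM in MHCII-deleted tumors, 440.2, 490.9 and 573.3 in control tumors, 309.6 and 358.1 in MHCII-deleted LN, and 334, 341.5 and 360.6 in control LN. The control tumors stood above all other groups, with a log2 fold change of 0.54 ± 0.11 over LN (edgeR, adjusted p = 0.0033). Srebf1, whose SREBP1 products favor fatty acid genes, had 142.1 and 185.8 CPM in MHCII-deleted tumors, 139.3, 198 and 230.1 in control tumors, 170.3 and 191 in MHCII-deleted LN, and 183.5, 164.4 and 181.5 in control LN. All 4 groups overlapped, and the tissue effect in control mice was 0.10 ± 0.17 (edgeR, adjusted p = 0.681). Scap, the escort of both SREBPs, gave 0.12 ± 0.16 (edgeR, adjusted p = 0.585). These are RNA levels, and the cleavage that activates SREBPs was not measured. Stard4, a cytosolic sterol carrier, had 63.2 and 48.7 CPM in MHCII-deleted tumors, 57.1, 60.1 and 62.6 in control tumors, 24.1 and 27.4 in MHCII-deleted LN, and 32.4, 24.3 and 33.3 in control LN. Its tumor level was 2.00 times the LN level in control mice, with no difference between the genotypes past the test in either tissue (edgeR, adjusted p = 0.698 in tumor and 0.935 in LN).

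In control mice, 6 of the 8 fatty acid enzymes rose and 0 fell, where 22.8% and 16.1% of all genes did. Their median was 1.09 on the log2 scale, against 0.08 for all genes. The largest values were those of Scd1, Fads2 and Scd2, and the lowest were those of Acly and Acaca. Acly, which frees acetyl-CoA from citrate, had 0.12 ± 0.08, and Acaca, which makes malonyl-CoA, had -0.24 ± 0.28, and neither passed (edgeR, adjusted p = 0.293 and 0.543). Of the Acaca windows 30.4% occur in another gene, so its level is uncertain. Fasn, the fatty acid synthase, had 485.2 and 585.7 CPM in MHCII-deleted tumors, 245.1, 393.4 and 335.7 in control tumors, 231.8 and 244.3 in MHCII-deleted LN, and 224.8, 211.9 and 201.7 in control LN. The lowest control tumor lay just above the highest LN library, and the fold change in control mice was 0.61 ± 0.15 (edgeR, adjusted p = 0.0115). Elovl6, which elongates palmitate, rose with 1.23 ± 0.28 (edgeR, adjusted p = 0.00685).

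The stearoyl-CoA desaturases, which put the first double bond into saturated fatty acids, differed between isoforms. Scd2 (ENSMUSG00000025203, chromosome 19, 44293674 to 44306864, plus strand) was present in LN and had 2502 and 2614 CPM in MHCII-deleted tumors, 463.5, 989.8 and 1028 in control tumors, 307.3 and 266.9 in MHCII-deleted LN, and 302.9, 273.7 and 223.1 in control LN. The level in control tumors was 3.10 times that in LN (log2 1.63 ± 0.26; edgeR, adjusted p = 0.00117). Scd1 (ENSMUSG00000037071, chromosome 19, 44394455 to 44407879, minus strand) was near 0 in LN, with 216.2 and 158.5 CPM in MHCII-deleted tumors, 31.6, 79.9 and 85.6 in control tumors, 2.56 and 0.515 in MHCII-deleted LN, and 0.121, 0.0270 and 0.134 in control LN. Its 9 counts in control LN are 0.0901 CPM (exact 95% Poisson interval 0.0412 to 0.171), and its fitted log2 fold change in control mice was 9.44 ± 0.78 (edgeR, adjusted p = 1.96e-05). The genes share 145 of 4888 Scd1 and 5461 Scd2 windows of 50 bases. Their levels in control LN were 0.0192 CPM per kilobase for Scd1 and 48.8 for Scd2.

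Fads2 and Fads1, neighbors on chromosome 19 that desaturate polyunsaturated fatty acids, likewise differed in their LN level. Fads2 had 205.1 and 207.4 CPM in MHCII-deleted tumors, 35.9, 79.7 and 102.6 in control tumors, 0.710 and 1.25 in MHCII-deleted LN, and 1.30, 3.56 and 1.14 in control LN. The tumor level in control mice was 35.8 times the LN level (log2 5.16 ± 0.53; edgeR, adjusted p = 7.57e-05). Fads1 had 34.6 to 75.2 CPM in control tumors and 23.8 to 31.5 in control LN. It rose with 0.96 ± 0.27 (edgeR, adjusted p = 0.0173) and lost its call without library 3 of the control tumors (0.69) or library 2 of the control LN (0.83). Of the control tumors, library 1 was lowest for Fasn, Scd1, Scd2, Fads1 and Fads2, and it also had the lowest melanoma sum, 3653 CPM against 4493 and 7199, and the lowest stromal sum, 444.4 CPM against 4179 and 2545. Over the control tumors, Scd1, Scd2, Fads1 and Fads2 stood in the order of the melanoma sum. So did the sum of the sterol enzymes (1210, 1400 and 1535 CPM), though not each sterol enzyme. Acly, Acaca, Elovl6 and Fasn did not, Fasn with 393.4 CPM in library 2 and 335.7 in library 3. The part of the melanoma or the stromal sum in these levels was not tested.

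Within tumor, MHCII-deleted mice had higher levels of a subset of both branches. Of the sterol enzymes 6 rose (Acat2, Hmgcs1, Fdps, Sqle, Lss and Hsd17b7) and 1 fell (Ebp), where 15% of all genes rose and 13.7% fell, and the median was 0.36 against 0.10 for all genes. Of the fatty acid enzymes 6 of 8 rose (Acly, Fasn, Scd1, Scd2, Fads1 and Fads2), with a median of 0.92, and 0 fell, also by DESeq2 and at an unadjusted p under 0.05. Summed over the 17 sterol enzymes, the level was 1599 and 2045 CPM in MHCII-deleted tumors and 1210, 1400 and 1535 in control tumors. Summed over the 8 fatty acid enzymes it was 4366 and 4481 CPM in MHCII-deleted tumors and 1385, 2259 and 2233 in control tumors, groups that lie far apart for fatty acid and close together for sterol enzymes. Scd2 alone averaged 2558 CPM of a mean fatty acid sum of 4424 in MHCII-deleted tumors, and 827 of 1959 in control tumors. With the regulators, 15 of 31 members were called, where 28.7% of all genes were. In the same comparison 9 of 10 melanoma markers rose, all 7 Treg markers and all 21 tested pan-T cell genes fell, and the part of that shift in these results was not tested.

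Fdps rose 2.02-fold (log2 1.01 ± 0.17; edgeR, adjusted p = 0.00223) and Acat2 2.31-fold (1.21 ± 0.21; edgeR, adjusted p = 0.00273). Acat2 had 83.3 and 79.6 CPM in MHCII-deleted tumors and 24.7, 40.0 and 41.3 in control tumors. Sqle rose with 1.15 ± 0.26 and Lss with 0.95 ± 0.19 (edgeR, adjusted p = 0.00985 and 0.00554). Hsd17b7 rose with 0.65 ± 0.19 and Hmgcs1 with 0.42 ± 0.14 (edgeR, adjusted p = 0.0273 and 0.0467). Several other steps were near 0. Cyp51 had 0.13 ± 0.18, Fdft1 0.06 ± 0.17, Pmvk 0.03 ± 0.23, Sc5d -0.11 ± 0.12 and Idi1 -0.13 ± 0.43, none past the test (edgeR, adjusted p = 0.536 to 0.933). Mvk, Mvd, Msmo1, Nsdhl and Dhcr7 had values of 0.31 to 0.81 and did not pass either.

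Ebp was the 1 sterol enzyme that fell relative to all counts. It had 84.2 and 109.3 CPM in MHCII-deleted tumors, 156.2, 161.8 and 154.6 in control tumors, 114.9 and 118.4 in MHCII-deleted LN, and 136, 122.8 and 138.6 in control LN. The MHCII-deleted tumors held the lowest values of all libraries and the control tumors the highest. The log2 fold change in tumor was -0.70 ± 0.12 (edgeR, adjusted p = 0.00286), and it turned to 0.37 when libraries were scaled to pan-T cell genes. Srebf2 also fell, with -0.44 ± 0.12 (edgeR, adjusted p = 0.023), and turned to 0.64 with that scaling. Insig2 rose with 0.63 ± 0.18 (edgeR, adjusted p = 0.0285), while Insig1, with 0.36 ± 0.25, did not pass (edgeR, adjusted p = 0.313).

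Scd2 had the largest value of the fatty acid enzymes. Its level in MHCII-deleted tumors was 3.09 times that in control tumors (log2 1.63 ± 0.28; edgeR, adjusted p = 0.0031). Scd1 and Fads2 had similar values, 1.51 ± 0.50 and 1.50 ± 0.47, with larger errors (edgeR, adjusted p = 0.0483 and 0.0395), and Fads1 had 1.12 ± 0.29. Fasn rose with 0.72 ± 0.17 and Acly with 0.42 ± 0.09 (edgeR, adjusted p = 0.0118 and 0.00833). All 8 fatty acid enzymes were higher in both MHCII-deleted tumors than in each of the 3 control tumors, where 29.6% of all genes were. Of the sterol enzymes 7 were higher without overlap and 1 was lower, as 24% of all genes were. Acaca and Elovl6, at 0.71 ± 0.31 and 0.16 ± 0.31, were so without passing the test (edgeR, adjusted p = 0.114 and 0.732).

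Of the 15 members called in this comparison, Acat2, Fdps, Lss, Ebp and Scd2 were called under each of 15 alternatives that keep the scaling to all counts. Without library 2 of the MHCII-deleted tumors 3 sterol and 2 fatty acid enzymes rose, and without library 1 of that group 3 fatty acid enzymes did. Scd1 kept its call in 3 of 15 alternatives, Hmgcs1 in 4 and Fads2 in 6. With scaling to the pan-T cell genes the all-gene median went from 0.10 to 1.19 and the share of calls that were higher from 52.3% to 99.4%. On that scale 9299 of the 13920 genes tested were called, and of the 17 sterol enzymes 16, all but Idi1, rose and 0 fell. The sterol median was 1.44 and the fatty acid median 2.00, against 1.19 for all genes.

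**Figure D4:**
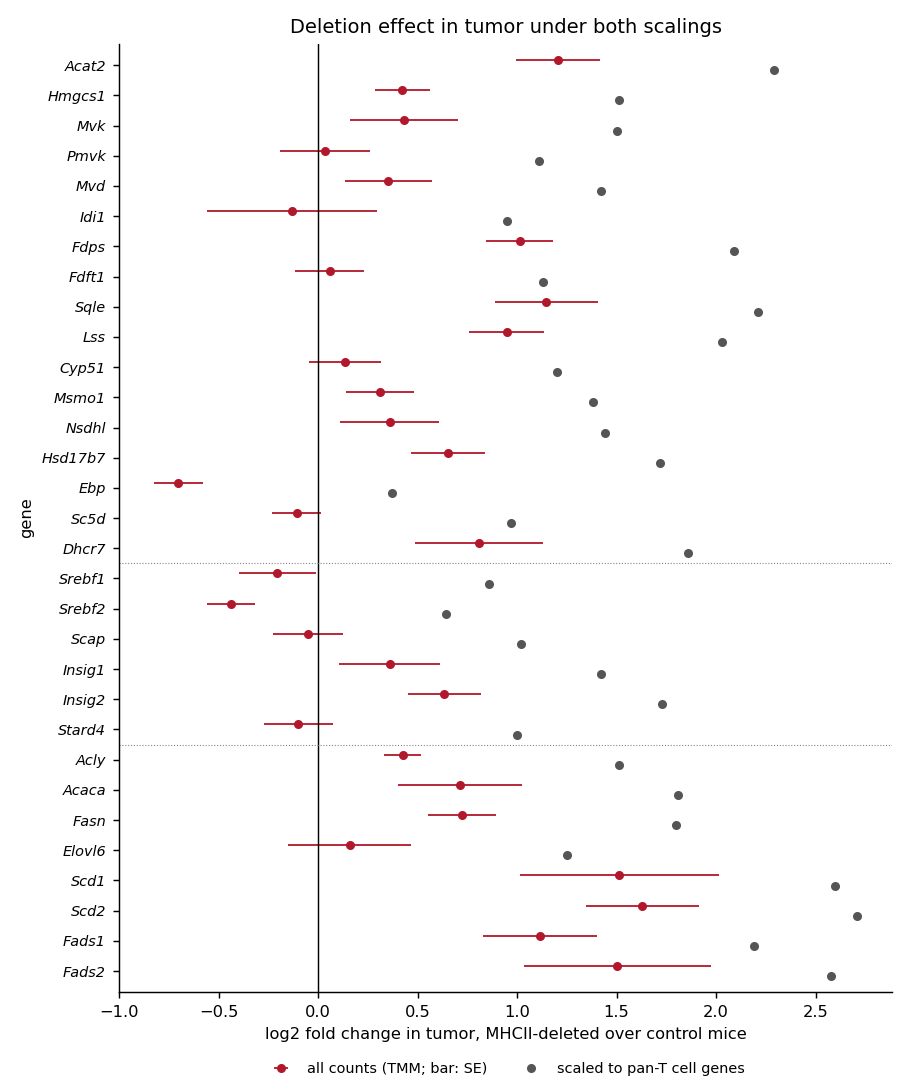
The horizontal axis gives the log2 fold change in tumor of MHCII-deleted over control mice for each member, relative to all counts (red, with SE) and scaled to pan-T cell genes (grey). The pan-T scaling moves each member to the right, and Ebp, Srebf2, Srebf1, Scap, Sc5d, Stard4 and Idi1 change from below to above 0.

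**Figure D5:**
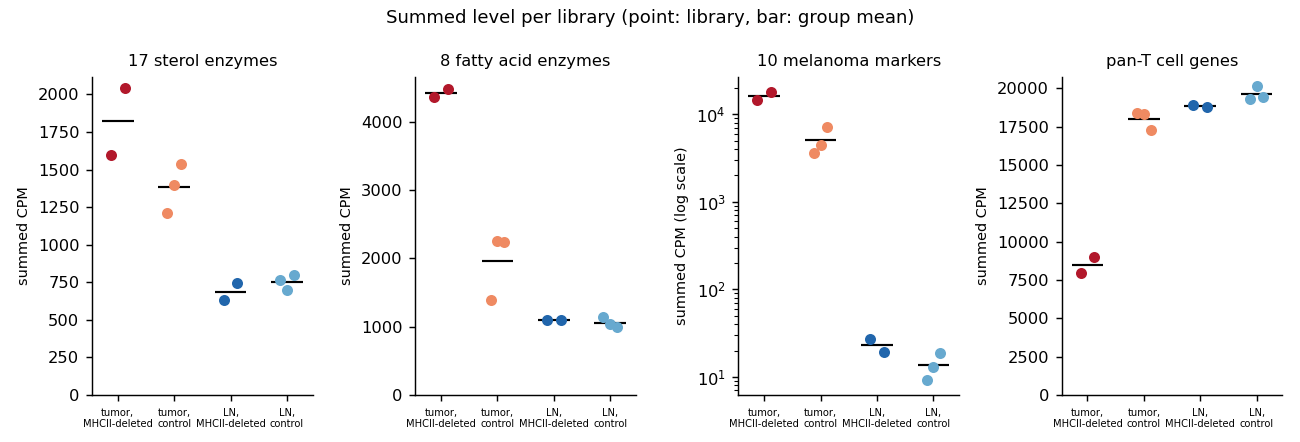
Summed CPM per library (points) with group means (bars) for the 17 sterol enzymes, 8 fatty acid enzymes, 10 melanoma markers (log scale) and the pan-T cell genes. Sums of both enzyme groups and of melanoma markers are highest in MHCII-deleted tumors, where the pan-T sum is lowest.

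In LN no member was called between MHCII-deleted and control mice. By edgeR 0 of 31 members passed, where 1.07% of all genes rose and 0.0359% fell, 1.11% together. Without overlap between the groups, 4 sterol enzymes were lower and 2 fatty acid enzymes (Fasn and Scd1) higher, where 11.9% of all genes were lower and 15.4% higher. At an unadjusted p under 0.05, Hsd17b7 was lower (-0.53 ± 0.20; edgeR, adjusted p = 0.324) and Scd1 higher (4.05 ± 0.93; edgeR, adjusted p = 0.071), and DESeq2 called Scd1 alone (4.02; DESeq2, adjusted p = 0.000751). The sterol enzymes had a median of -0.15, against 0 for all genes. Of the 17, 16 lay below 0 and only Lss, with 0.01, lay above it, as 6565 of all 13920 genes did. Fdps, Msmo1 and Sc5d turned to 0.03, 0.04 and 0.03 with scaling to pan-T cell genes, and the sterol median was 0.01 without library 1 of the MHCII-deleted LN. Sterol sums were 634 and 742.2 CPM in MHCII-deleted LN and 762.9, 697.9 and 796 in control LN, which overlap. Fatty acid sums were 1101 and 1104 CPM in MHCII-deleted LN and 1134, 1041 and 998.7 in control LN, which overlap too.

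Scd1 in LN rested on few counts, 90 and 16 in MHCII-deleted LN against 4, 1 and 4 in control LN. Over each group, that was 1.60 CPM (exact 95% Poisson interval 1.31 to 1.93) and 0.0901 CPM (0.0412 to 0.171). These intervals pool the libraries of a group and cover counting error only, not the spread between libraries. The MHCII-deleted LN libraries, at 2.56 and 0.515 CPM, both lay outside theirs. Most of the difference came from library 1 of the MHCII-deleted LN. The melanoma sum was 27.1 and 19.0 CPM in those libraries of MHCII-deleted mice and 9.11, 13.1 and 18.7 in control LN, with Sox10 at 0 in both MHCII-deleted LN libraries, and its part in the Scd1 level was not tested.

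The deletion effects in tumor and LN were compared by the difference between them, tumor minus LN, which is also the difference between the tissue effects of the genotypes. Of the sterol enzymes 3 had a positive difference past the test and 0 a negative one, where 4.14% of all genes were positive and 6.57% negative (10.7% together): Acat2 (1.27 ± 0.30; edgeR, adjusted p = 0.0276), Hsd17b7 (1.18 ± 0.27; edgeR, adjusted p = 0.0241) and Fdps (1.03 ± 0.24; edgeR, adjusted p = 0.0265). At an unadjusted p under 0.05 only Ebp of the sterol and only Scd1 of the fatty acid enzymes were negative, and by DESeq2 0 were. Scd2 was the 1 fatty acid enzyme that passed (1.52 ± 0.41; edgeR, adjusted p = 0.0445). For these 4 genes the excess of tumor over LN was larger in MHCII-deleted than in control mice. Sqle and Lss missed the threshold with 1.33 ± 0.38 and 0.93 ± 0.27 (edgeR, adjusted p = 0.0503 and 0.0565), and Ebp had -0.52 ± 0.17 (edgeR, adjusted p = 0.0822). With pan-T scaling the all-gene median went from -0.01 to 1.02 and the share of positive calls from 38.6% to 99.6%, and Ebp turned to 0.50. None of the 4 calls was made under all of 14 alternatives that keep the scaling to all counts. Acat2 lost it without either MHCII-deleted LN library (1.42 and 1.14), as did Fdps (1.00 and 1.06), Hsd17b7 (1.31 and 1.06) and Scd2 (1.63 and 1.42).

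Other genes of lipid handling were read from lists chosen with earlier results of these data known. In the sterol side branches and SREBP processing (10 genes), 2 rose and 3 fell in tumor over LN in MHCII-deleted mice, shares near the 24.3% and 20.1% of all genes. Erlin2, which takes part in the degradation of sterol-regulated proteins, rose with 1.81. Mbtps1, the protease that makes the first cut in SREBPs, fell with -0.84 and Ggps1, which diverts isoprenoids to prenylation, with -0.68 relative to all counts, and they turned to 0.30 and 0.49 with scaling to pan-T cell genes. In control mice 1 rose and 3 fell, where 22.8% and 16.1% of all genes did, with Mbtps1 at -0.59, Ggps1 at -0.54 and Dhdds, which acts in dolichol synthesis, at -0.44 (edgeR, adjusted p = 0.00452 to 0.0169). Between the genotypes in tumor 1 rose, Erlin2 with 1.09 (edgeR, adjusted p = 0.00976), and 0 fell, also by DESeq2 and at an unadjusted p under 0.05, where 15% of all genes rose and 13.7% fell. Erlin2 missed the threshold, at 0.56, when the second of the MHCII-deleted tumors was left out.

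In sterol export, esterification and LXR response (12 genes), single genes moved in both directions. Abcg1, an LXR target that exports cholesterol, had 26.2 and 31.1 CPM in MHCII-deleted tumors, 54.2, 58.7 and 43.8 in control tumors, 141.6 and 131.4 in MHCII-deleted LN, and 140.4, 131.9 and 117 in control LN. All tumor libraries lay below all LN libraries, lowest in the MHCII-deleted mice. In tumor over LN, 2 of 12 rose and 4 fell in MHCII-deleted mice, where 24.3% and 20.1% of all genes did. Abcg1 was at -2.25 and the lysosomal lipase Lipa at -1.25. Mylip, an LXR target that degrades lipoprotein receptors, was at -1.16 and Soat1, which esterifies cholesterol, at 0.85. Scaled to pan-T cell genes, Abcg1 had -1.11, Lipa -0.10 (edgeR, adjusted p = 0.574), Mylip 0.01 and Soat1 2.01. In control mice 3 rose and 4 fell, where 22.8% and 16.1% of all genes did, with Mylip at -1.60, Abcg1 at -1.31, Lipa at -0.73 and the lysosomal sterol carrier Npc2 at 0.44 (edgeR, adjusted p = 5.46e-05 to 0.00421). Between the genotypes in tumor 0 rose by edgeR (4 at an unadjusted p under 0.05 and 2 by DESeq2, Abca1 and Soat1) and 3 fell, where 15% and 13.7% of all genes did. Those were Abcg1 (-0.87), Npc2 (-0.58) and Lipa (-0.67) relative to all counts, and scaled to pan-T cell genes they turned to 0.22, 0.50 and 0.41. Lipa kept its call in 14 of 15 alternatives, the exception leaving out the first MHCII-deleted tumor.

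In fatty acid supply, elongation and storage (17 genes), 9 rose and 3 fell in tumor over LN in MHCII-deleted mice, where 24.3% and 20.1% of all genes did. In control mice 9 rose and 0 fell (1, Acss2, at an unadjusted p under 0.05 and 0 by DESeq2), where 22.8% and 16.1% of all genes did. The triglyceride synthases Dgat1 and Dgat2 had clear steps. Dgat1 had 243.8 and 235.5 CPM in MHCII-deleted tumors, 412.4, 526.5 and 429.9 in control tumors, 33.7 and 38.2 in MHCII-deleted LN, and 34.5, 50.5 and 37.2 in control LN. The control tumors were highest and the LN groups overlapped. The log2 fold changes of tumor over LN were 2.74 in MHCII-deleted and 3.48 in control mice for Dgat1, and 2.99 and 3.96 for Dgat2 (edgeR, adjusted p = 4.79e-07 to 0.000102). Acsl3, an acyl-CoA ligase, rose with 2.90 in MHCII-deleted and 1.16 in control mice, and Hacd2, an enzyme of fatty acid elongation, with 0.76 in both. Me1, the malic enzyme that supplies NADPH, was at 154.3 and 103.1 CPM in MHCII-deleted tumors, 11.4, 21.7 and 24.2 in control tumors, 0.0284 and 0.0965 in MHCII-deleted LN, and 0 in all 3 control LN libraries, where 3 counts would be 0.0809 to 0.1 CPM. It was near or at 0 in LN of both genotypes. Between the genotypes in tumor 3 rose and 7 fell, where 15% and 13.7% of all genes did, with Me1 at 2.75 and Acsl3 at 1.89 (edgeR, adjusted p = 0.00115 and 0.00112), against Dgat1 at -0.93 and Elovl5, an elongase of polyunsaturated fatty acids, at -0.57 relative to all counts. Scaled to pan-T cell genes, Dgat1 turned to 0.16 and Elovl5 to 0.52.

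In fatty acid uptake and oxidation (15 genes), 7 rose and 0 fell in tumor over LN in MHCII-deleted mice, with 0 also by DESeq2 and at an unadjusted p under 0.05, where 24.3% and 20.1% of all genes did. In control mice 6 rose and 1 fell, where 22.8% and 16.1% of all genes did. Pparg, a lipid-responsive nuclear receptor known in tissue Tregs, had 3.23 and 4.0 CPM in MHCII-deleted tumors, 3.88, 7.60 and 5.08 in control tumors, 0.312 and 0.225 in MHCII-deleted LN, and 0.0304, 0.0540 and 0 in control LN. The fatty acid binding protein Fabp5 rose with 2.58 in MHCII-deleted and 0.95 in control mice, and the dehydrogenase Acadl with 0.79 and 0.77. The carnitine carrier Slc25a20 rose with 0.52 in control mice. Between the genotypes in tumor 5 rose and 1 fell, where 15% and 13.7% of all genes did, with Fabp5 at 1.08 and the mitochondrial subunit Hadha at 0.51, against Slc25a20 at -0.42, which turned to 0.67 with scaling to pan-T cell genes (edgeR, adjusted p = 0.00286 to 0.0244). The calls of Hadha and Slc25a20 were lost under 4 and 5 of 15 alternatives. In LN, edgeR called 0 of the 54 genes of these lists between the genotypes and DESeq2 0, while 6 had an unadjusted p under 0.05.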

How the data were processed

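Bulk RNA-seq libraries of sorted Tregs (SMARTer Ultra Low and Nextera XT kits, single reads of 50 bases, per the labels' protocols) were made into a table of raw counts per gene, deposited by the authors. CASAVA 1.8.2, STAR 2.4, featureCounts 1.4.6 and GRCm38 are named in the submitters' processing notes. The annotation release and strand setting are not given in the sources used here. The members and all lists were chosen with earlier results of these data known. Counts of all 10 libraries were fitted as 4 group means with edgeR 4.0.16 (quasi-likelihood, robust, TMM, filterByExpr with a minimum count of 10) in R 4.3.3, adjusted by the Benjamini-Hochberg method over 13920 genes with a threshold of 0.05. The SE is the log2 fold change divided by the square root of F. Members called in tumor or in control mice have values per library, up to 12 by adjusted p and always the SREBP, Insig and Scd genes, and related lists give up to 4 called genes per comparison, some of which are counted in their list but not reported here by name. The values per library of Acat2, Ebp, Fasn and Dhcr7 were chosen after being seen. Alternatives were RLE factors, DESeq2 1.42.0, no filter, a replicate block, scaling to the listed pan-T cell genes (21 of 22 had counts), only the groups compared and leaving out each library. Those of the related genes were added after seeing the data. The fit was tested on simulated data. No pair of libraries was a duplicate. Shared reads were estimated from 50-base windows of the transcripts.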

Additional observations from a re-analysis of the deposited data

Results flagged for a closer look

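For 10 genes described here the deletion effect differed between tumor and LN by the test of the difference itself (edgeR quasi-likelihood, adjusted p under 0.05), given as tumor minus LN on the log2 scale. Among the members these were Acat2 (1.27), Fdps (1.03), Hsd17b7 (1.18) and Scd2 (1.52). Among the other lipid genes they were Erlin2 (1.59), Slc25a1, the citrate carrier (0.87), Acsl3 (1.74) and Fabp5 (1.63), all positive, and Abcg1 (-0.94) and Npc2 (-0.62), both negative relative to all counts and turned to 0.09 and 0.40 with scaling to pan-T cell genes. Fabp5 was the 1 gene of these called under each of 14 alternatives that keep the scaling to all counts, with values of 1.43 to 1.72. It was higher by 1.08 in MHCII-deleted tumors. Slc25a1 was called in 5 of 14 and Scd2 in 5 of 14. In the same test 19 of 21 pan-T cell genes and all 7 Treg markers were negative and 0 of 10 melanoma markers passed, and their part in these differences was not tested.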

How the results depend on the processing

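Of the calls of members, 5 of 15 between the genotypes in tumor, 20 of 24 and 17 of 22 between tissues in MHCII-deleted and control mice, and 0 of 4 of the tumor minus LN differences were made under every alternative that keeps the scaling to all counts (15, and 14 for the differences). The scaling to pan-T cell genes made 16 sterol enzymes higher and 0 lower between the genotypes in tumor, with 9244 genes higher and 55 lower among all genes, against 2092 and 1907. It gave 8759 higher and 354 lower between tissues of MHCII-deleted mice, 1401 lower in control mice, 406 higher between the genotypes in LN, and 5941 positive and 25 negative differences with 16 sterol and 7 fatty acid enzymes among the positive. With that scaling, values turned positive between the genotypes in tumor for the members Ebp (0.37), Sc5d (0.97), Idi1 (0.95), Srebf1 (0.86), Srebf2 (0.64), Scap (1.02) and Stard4 (1.00). Those of the related genes Abcg1 (0.22), Npc2 (0.50), Lipa (0.41), Dgat1 (0.16), Elovl5 (0.52) and Slc25a20 (0.67) did so too. Between tissues of MHCII-deleted mice, values turned positive for Ebp (0.88), Srebf1 (1.00), Scap (1.13), Mylip (0.01), Mbtps1 (0.30) and Ggps1 (0.49). In the tumor minus LN difference they did so for Ebp (0.50), Sc5d (0.94), Srebf1 (0.77), Srebf2 (0.63), Scap (0.88), Abcg1 (0.09) and Npc2 (0.40).

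Fitting only the groups compared left 1 fatty acid enzyme higher between the genotypes in tumor, with 1132 genes higher in all. Between the genotypes in LN, 149 genes were higher and 5 lower, against 22 and 1 with RLE factors, 602 and 57 with DESeq2, which called 1 fatty acid enzyme, and 787 and 23 with only the groups compared. Of the differences, RLE factors gave 5 sterol and 2 fatty acid enzymes and DESeq2 gave 6 and 4 with 1260 positive genes, and without the low-count filter 0 fatty acid enzymes passed. DESeq2 put 50.7% of called differences on the positive side, against 38.6%. The cause of these changes was not tested.

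Deviations from the group means correlated at -0.148 to 0.046 for equal replicate numbers and at -0.056 to 0.148 for other numbers. Between tumor and LN of the same genotype, they correlated at 0.02 to 0.046 for equal numbers and at -0.035 to -0.003 for other numbers. In the MHCII-deleted groups, with 2 libraries each, the deviations mirror each other, so their values cannot decide whether the numbers pair the libraries. In control mice, with 3 libraries per group, tumor and LN gave 0.02, 0.038 and 0.046 for equal numbers. For other numbers they gave -0.034 to -0.003. Whether tumor and LN libraries came from the same mice is not known, and the main fit did not pair them. With the replicate block 0 genes were higher and 0 lower between the genotypes in LN, 0 fatty acid enzymes had a positive difference, and 1524 genes were higher and 1620 lower between the genotypes in tumor.

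Leaving out each library in turn gave 3 to 8 sterol enzymes higher, 1 to 1 lower and 2 to 5 fatty acid enzymes higher between the genotypes in tumor, with 1446 to 1973 genes higher and 1299 to 1758 lower. In LN it gave 0 to 598 higher, 0 to 13 lower and 0 to 1 fatty acid enzymes, Scd1, called without library 1 or 2 of the MHCII-deleted tumors or library 1 of the control tumors. Between tissues it gave 11 to 14 sterol enzymes higher and 0 to 1 lower in MHCII-deleted mice, the 1 being Ebp without library 2 of their tumors (-0.47), with 7 to 7 fatty acid enzymes higher and 2340 to 3439 genes higher and 1953 to 2887 lower. In control mice it gave 9 to 13 sterol and 5 to 6 fatty acid enzymes higher, with 2546 to 3296 genes higher and 1605 to 2387 lower. The tumor minus LN differences gave 0 to 4 sterol enzymes positive, 0 to 1 negative, 0 to 2 fatty acid enzymes positive, and 147 to 869 genes positive and 380 to 1412 negative. With 2 libraries in a group, leaving out 1 assumes that the other varies like the remaining groups. At these depths the fold changes of Scd1 rest on 9 counts in control LN.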

Other observations

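Rnf139, a ubiquitin ligase of the endoplasmic reticulum that acts on sterol-regulated proteins, differed strongly between the MHCII-deleted tumors and was chosen after its values were seen. It had 25.2 and 68.0 CPM in MHCII-deleted tumors, 42.2, 31.9 and 30.2 in control tumors, 72.6 and 72.1 in MHCII-deleted LN, and 38.2, 48.8 and 30.5 in control LN. The MHCII-deleted LN libraries lay above those of control mice without overlap, as 15.4% of all genes did, with a log2 fold change of 0.88 ± 0.35 (edgeR, adjusted p = 0.415). Pparg, too, was higher without overlap in MHCII-deleted LN, at 0.312 and 0.225 CPM against 0.0304, 0.0540 and 0 in control LN, few counts that edgeR did not call (adjusted p = 0.108).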
